A study of Arabidopsis thaliana with 9 samples.

Results

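The data follow the earliest measured response of root quiescent centre cells to the release of the transcription factor PLT2, as the difference between arrays taken after 1 h of induction and arrays taken after 1 h of mock treatment. These 2 groups hold 6 of the 9 arrays of the series, chosen by their titles and treatments, with 3 arrays each. The remaining 3 arrays came from a 4 h induction and entered only the estimate of the spread and a few values set beside those at 1 h. Arrays of both groups came from Arabidopsis thaliana seedlings 5 days after germination that were plt1plt2 double mutants. They carried PLT2::PLT2-GR, a complementing fusion of PLT2 to the glucocorticoid receptor under the PLT2 promoter, and WOX5::erGFP, a fluorescent reporter for the quiescent centre. The induced group spent 1 h on plates with 10 µM dexamethasone in DMSO and the mock group spent 1 h on plates with DMSO alone. Root tips were then digested to protoplasts for 1 h, GFP cells were sorted, and their total RNA was hybridised, so that the time from transfer to lysis was longer than 1 h in both groups. No array analysed here came from dexamethasone-treated plants without the fusion, so effects of the drug and of PLT2-GR cannot be told apart, and the labels name no inhibitor of protein synthesis.

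PLT2 (PLETHORA2) is an AP2-type transcription factor that, with PLT1 and other family members, forms a gradient in the root tip and maintains the stem cell niche there. The quiescent centre is the group of slowly dividing cells at the core of that niche, and it lies near the maximum of the hormone auxin, which itself promotes PLT expression. A fusion to the glucocorticoid receptor stays in the cytoplasm until dexamethasone binds it, which lets the fused factor enter the nucleus. Auxin is made mainly by TAA1 and the YUC flavin monooxygenases, is moved by PIN efflux and AUX1/LAX influx carriers, and is inactivated by GH3 enzymes that join it to amino acids. Tryptophan also feeds a second route, through indole-3-acetaldoxime to the sulfur-rich indole glucosinolates.

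Levels are log2 values per probe set, 1 for each of 21430 loci, and where 3 values are given for a group they are replicates 1, 2 and 3 in that order. Errors after ± are standard errors of the fitted difference. Across genes, the correlation between arrays was 0.9962 to 0.9972 within mock and 0.9949 to 0.9969 within 1 h, and the median SD over genes was 0.10 in each group. Hybridization, poly-A, rRNA, actin, GAPDH and ubiquitin control probe sets overlapped between the 2 groups. Of the niche genes that could check the sort, SCR had levels of 8.66, 8.50 and 8.50 in mock and 8.72, 8.80 and 8.62 at 1 h. AGL42 lay below the first quartile of all loci on each of these 6 arrays, and WOX5, whose promoter drove the reporter, was not analysed here. The mean level of 11 root cap genes was 7.12 to 7.25 on the mock arrays and 6.89 to 7.23 at 1 h. It was 5.47 to 5.72 and 5.52 to 5.66 for 14 epidermis and root hair genes, 4.34 to 4.75 and 4.46 to 4.63 for 10 endodermis and cortex genes, and 4.94 to 5.05 and 4.96 to 5.09 for 24 vascular and pericycle genes. No member of these 4 lists was called, against 0.187% of all loci, and for each list the range at 1 h overlapped that in mock. In RNA from a sorted pool, a different share of cells carrying a transcript and a different amount of it per cell cannot be told apart.

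No gene of the PLT family was called, against 0.187% of all loci. PLT2 (AT1G51190) had levels of 8.66, 8.53 and 8.55 in mock and 9.14, 8.84 and 8.79 at 1 h. The groups did not overlap, and the difference of 0.34 ± 0.16 log2 units was not called (adjusted p = 0.998). The mutated and the introduced PLT2 were not distinguished, because the position of its probe set in the gene was among the facts not given in the sources used here. PLT1 (AT3G20840) differed by 0.01 ± 0.09. Of the 7 family members measured, 2 had an unadjusted p under 0.05, against 4.34% of all loci. They were AIL5 (PLT5) at -0.40 ± 0.13 and AIL6 (PLT3) at -0.21 ± 0.08. BBM, which acts with PLT2 in embryo and root, had a difference of 0.26 ± 0.26, AIL7 (PLT7) one of -0.07 and ANT one of 0.06.

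After 1 h of dexamethasone the called differences were almost all rises. Of 21430 loci, 38 rose (0.177%) and 2 fell (0.00933%) at an adjusted p under 0.05, the threshold for a call, in a limma model of all 9 arrays. The rises spanned 1.47-fold to 4.02-fold with a median of 2.20-fold, and 22 of them were at least 2-fold. Over all loci the differences were balanced: the median log2 difference over all loci was -0.008, and at an unadjusted p under 0.05 there were 499 higher loci (2.33%) and 431 lower (2.01%). In all 40 called genes the 3 values at 1 h lay wholly on one side of the 3 in mock, with a gap of 0.36 to 1.56 log2 units. These genes were called on the same arrays, so the separation is no further support for the calls. Over all loci, 11.1% had groups that did not overlap. Another 9 genes, all higher at 1 h, differed by at least 1 log2 unit without overlap and without a call, among 32 loci of any kind with a difference of that size (0.149%).

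**Figure D1:**
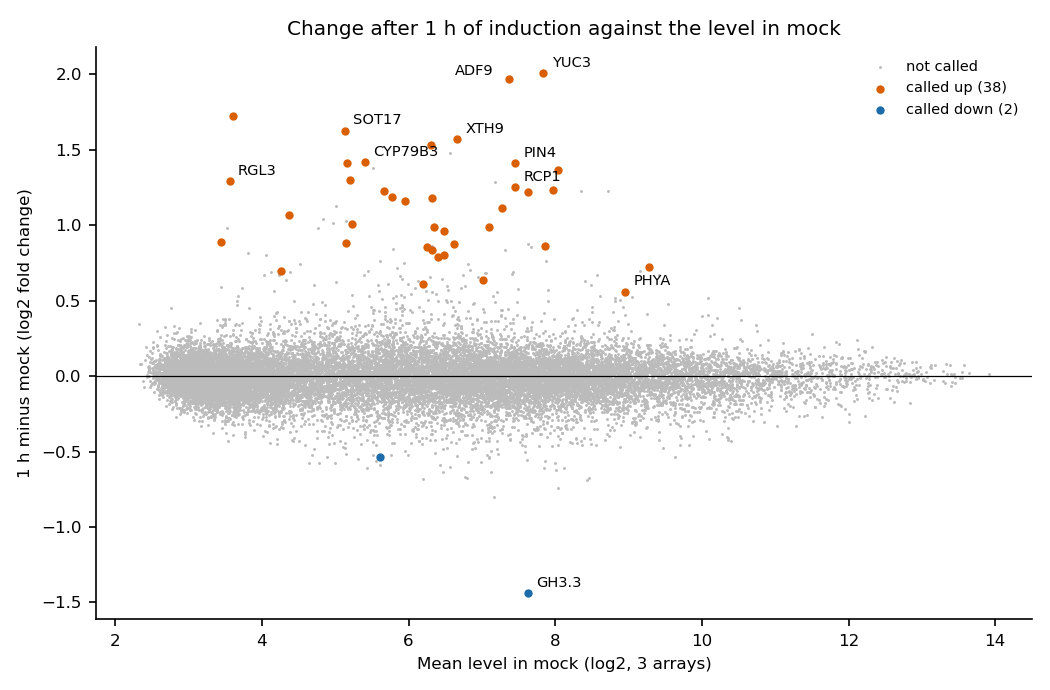
Log2 difference of 1 h minus mock (vertical axis) against the mean log2 level of the 3 mock arrays (horizontal axis), with 1 point per locus and called genes in colour. The 38 calls upward lie at mean mock levels between 3.45 and 9.27, YUC3 and ADF9 are the highest, and GH3.3 at -1.44 lies below every other point.

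The number of calls depended on single arrays. It was 21 without mock replicate 1, 8 without mock replicate 2 and 6 without mock replicate 3. It was 17 without 1 h replicate 1 and 6 without 1 h replicate 2 or without 1 h replicate 3. Without a 4 h array it was 61, 35 and 52 for replicates 1, 2 and 3, since those arrays share the estimate of the spread. On 4 h replicate 1 the poly-A control probe sets were at 8.12, against 5.78 to 6.23 on the other arrays. Its 5S rRNA control was at 5.63, against 4.59 to 5.04. What these control levels have to do with the counts was not tested. The 6 genes RCP1, PIN4, MLS, RGL3, AT4G28410 and YUC3 were called whichever of the 9 arrays was left out. No called gene changed direction in any of these fits. A fit of the 6 arrays of mock and 1 h alone called 65 genes (63 higher, 0.294%, and 2 lower), among them 38 of the 40, and weights for array quality gave 79, among them all 40.

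**Figure D2:**
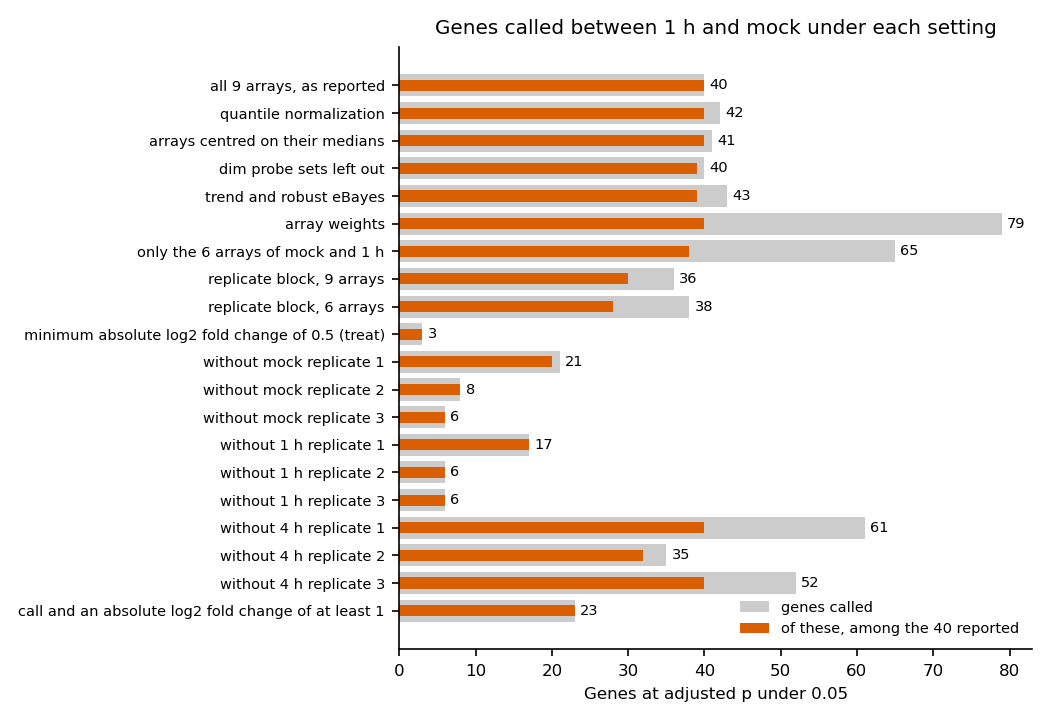
Number of genes called between 1 h and mock (horizontal axis) under each way of fitting the model (vertical axis), in grey, and how many of these are among the 40 reported, in orange. The count runs from 3 for a test of differences beyond 0.5 log2 units to 79 with array weights.

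Of the 26 gene lists, that of the route from tryptophan to indole glucosinolates held the most calls. All 26 lists were chosen with earlier results of these data known, so their counts are descriptions. Of 17 measured genes of this route and of tryptophan synthesis, 5 rose and 0 fell (29.4% called, against 0.187% of all loci), and their median difference was 0.437 log2 units. Another 4 had an unadjusted p under 0.05 and a higher level, which made 9 with the calls (2.33% of all loci). In 11 of the 17 all arrays at 1 h lay above those in mock (5.73% of all loci). The first committed step, from tryptophan to indole-3-acetaldoxime, is carried out by the cytochromes P450 CYP79B2 and CYP79B3. CYP79B2 (AT4G39950) had levels of 8.27, 7.74 and 7.89 in mock and 9.23, 9.14 and 9.23 at 1 h. It rose by 1.23 ± 0.14 log2 units (2.35-fold, adjusted p = 0.00911). CYP79B3 (AT2G22330) had levels of 5.49, 5.57 and 5.18 in mock and 6.82, 6.82 and 6.86 at 1 h. For both genes the 3 values at 1 h were close together, 2 of them equal, and lay well above the more scattered mock values. CYP79B3 rose by 1.42 ± 0.18 log2 units (2.68-fold, adjusted p = 0.0127). CYP79B2 and CYP79B3 are close relatives, and the probe sequences were likewise not given in the sources used here.

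Later steps of the route rose as well. CYP83B1 (AT4G31500, also SUR2), which oxidises indole-3-acetaldoxime and so commits it to glucosinolates, had levels of 8.38, 7.95 and 7.76 in mock and 9.24, 9.41 and 9.54 at 1 h. It rose by 1.37 ± 0.20 log2 units (2.58-fold, adjusted p = 0.0273). SUR1 (AT2G20610), the C-S lyase of the core pathway, had levels of 7.78, 7.57 and 7.67 in mock and 8.63, 8.43 and 8.53 at 1 h. Its groups were separate by a wide margin, yet the difference of 0.86 ± 0.16 was not called (adjusted p = 0.0942, and 0.00757 in the fit of the 6 arrays alone). UGT74B1 (AT1G24100), which adds the glucose, had levels of 6.40, 6.42 and 6.15 in mock and 7.15, 7.24 and 7.08 at 1 h. It rose by 0.84 ± 0.13 log2 units (1.79-fold, adjusted p = 0.0292). SOT16 (AT1G74100), the sulfotransferase that completes the molecule and prefers indole substrates, had levels of 8.01, 7.30 and 7.57 in mock and 8.73, 8.97 and 8.84 at 1 h. It rose by 1.22 ± 0.17 log2 units (2.33-fold, adjusted p = 0.0191), and mock replicate 1 was the highest of the mock values for it as for CYP79B2 and CYP83B1. The enzymes that conjugate and trim glutathione in the core pathway stood apart from these. GSTF9 differed by 0.24 ± 0.12 and GSTF10 by -0.09 ± 0.10, and GGP1, a gamma-glutamyl peptidase, by -0.05 ± 0.22.

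The factors that switch the route on and the reactions on either side of it showed unequal values. MYB34 (AT5G60890), an activator of indole glucosinolate genes, had levels of 5.80, 5.88 and 5.70 in mock and 6.32, 6.60 and 6.98 at 1 h. The groups did not overlap, and the difference of 0.84 ± 0.26 was not called (adjusted p = 0.788). Its relatives MYB51 and MYB122 differed by -0.05 ± 0.11 and 0.05 ± 0.09. In tryptophan synthesis, PAT1 (AT5G17990), the phosphoribosylanthranilate step, had a difference of 0.44 ± 0.07 (adjusted p = 0.0657), with 8.22 to 8.33 in mock and 8.72 to 8.74 at 1 h. ASA1, which opens that pathway, differed by 0.27 ± 0.13 and TSA1 by 0.25 ± 0.13. CYP81F enzymes modify the indole ring of finished glucosinolates. CYP91A2 (AT4G37430, also CYP81F1), which is not in the list of 17, had levels of 6.60, 6.20 and 6.24 in mock and 7.40, 7.31 and 7.31 at 1 h, and it rose by 0.99 ± 0.13 log2 units (1.99-fold, adjusted p = 0.0138). CYP81F4 differed by 0.52 ± 0.14 (adjusted p = 0.556) with every array at 1 h above every mock array, while CYP81F2 differed by 0.10.

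**Figure D3:**
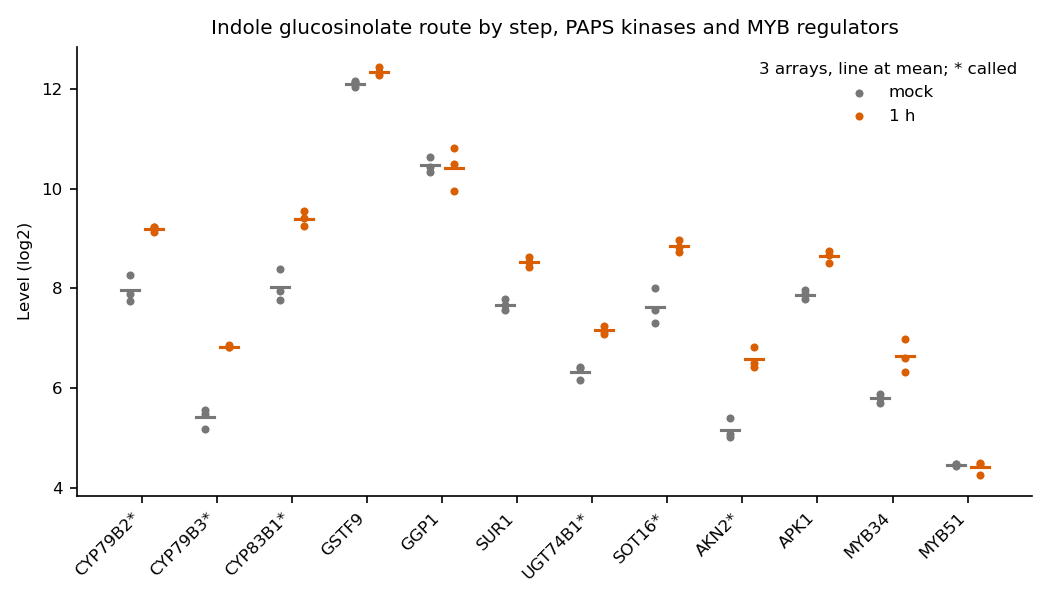
Log2 level on each of the 3 mock arrays (grey) and 3 arrays at 1 h (orange). A line marks each mean and an asterisk each called gene. Enzymes of the indole glucosinolate route come first, in the order of the reactions. Adenosine phosphosulfate kinases, which make PAPS (PAPS kinases in the figure title), and MYB regulators follow. CYP79B2, CYP79B3, CYP83B1, UGT74B1, SOT16 and AKN2 separate clearly, SUR1, APK1 and MYB34 separate without a call, and GGP1 and MYB51 overlap.

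Sulfation needs an activated sulfate donor, and a gene that makes it rose too. AKN2 (AT4G39940, also APK2), a kinase that turns adenosine phosphosulfate into the donor PAPS, had levels of 5.40, 5.07 and 5.03 in mock and 6.50, 6.42 and 6.82 at 1 h. It rose by 1.41 ± 0.16 log2 units (2.66-fold, adjusted p = 0.00911). In the order of loci in the TAIR10.1 table it lies directly beside CYP79B2, the only neighbouring pair among the 40 called genes. Its relative APK1 (AT2G14750, APK in the table) had a difference of 0.76 ± 0.14 with 7.79 to 7.96 in mock and 8.51 to 8.74 at 1 h (adjusted p = 0.0942). Of 18 measured genes of sulfate uptake and activation, AKN2 was the 1 that rose and 0 fell (5.56% called, against 0.187% of all loci). The median difference was 0.122. SAL1, a phosphatase that clears the by-product of sulfation, differed by 0.35 ± 0.12 and the transporter SULTR1;1 by -0.30 ± 0.10, neither called.

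The aliphatic glucosinolates, made from methionine, share the sulfotransferase step but not the entry enzymes. Of 18 measured genes of that branch, 1 rose and 0 fell (5.56% called, against 0.187% of all loci), with a median difference of 0.025. The gene that rose was SOT17 (AT1G18590), a sulfotransferase that acts mainly on aliphatic substrates, which had levels of 5.32, 5.16 and 4.91 in mock and 6.61, 6.79 and 6.87 at 1 h. It rose by 1.63 ± 0.18 log2 units (3.09-fold, adjusted p = 0.00611). Its relative SOT18 differed by 0.08 ± 0.11, the branch activators MYB28, MYB29 and MYB76 by 0.01, 0.06 and -0.23, and CYP83A1, the counterpart of CYP83B1, by 0.12.

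The calls of the glucosinolate genes rested on most of the arrays. CYP79B2, AKN2 and SOT17 were not called without mock replicate 2, mock replicate 3, 1 h replicate 2 or 1 h replicate 3, with adjusted p up to 0.0763, 0.0778 and 0.0607. CYP83B1, SOT16 and CYP91A2 were not called when any one of these arrays or 1 h replicate 1 was left out, with adjusted p up to 0.186, 0.140 and 0.107. CYP79B3 and UGT74B1 lost their calls when any one of the mock and 1 h arrays was left out (adjusted p up to 0.0934 and 0.189). The list of 17 therefore had 3 calls without mock replicate 1, 1 without 1 h replicate 1 and 0 when any one of the other mock and 1 h arrays was left out, and its median stayed between 0.378 and 0.456. Without single arrays the difference ranged from 1.12 to 1.39 for CYP79B2 and from 1.06 to 1.41 for SOT16.

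Among genes of auxin itself, synthesis and transport each gave rises and conjugation gave a fall. YUC3 (AT1G04610), a flavin monooxygenase of the last step of auxin synthesis, had levels of 7.83, 8.08 and 7.61 in mock and 10.02, 9.63 and 9.90 at 1 h. Every value at 1 h lay at least 1.55 log2 units above every mock value. The rise was 2.01 ± 0.20 log2 units (4.02-fold, adjusted p = 0.00343), the largest of the comparison, and it was called whichever array was left out (adjusted p up to 0.0395). Of 14 measured auxin synthesis genes it was the only one called (7.14%, against 0.187% of all loci). The median of the list was 0.006. YUC8 differed by 0.36 ± 0.14 and YUC5 by -0.39 ± 0.24, and TAA1, which supplies the substrate of the YUC enzymes, by 0.08 ± 0.12.

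Of 22 measured auxin transport genes 2 rose and 0 fell (9.09% called, against 0.187% of all loci), around a median of -0.029. PIN4 (AT2G01420), an efflux carrier known from the cells around the quiescent centre, had levels of 7.41, 7.58 and 7.36 in mock and 8.78, 8.78 and 9.03 at 1 h. It rose by 1.41 ± 0.11 log2 units (2.66-fold, adjusted p = 0.00146), and the adjusted p stayed at or under 0.0151 whichever array was left out. LAX2 (AT2G21050), an influx carrier, had levels of 7.22, 7.10 and 6.98 in mock and 8.0, 8.16 and 8.11 at 1 h. It rose by 0.99 ± 0.13 log2 units (1.99-fold, adjusted p = 0.0127), and its call was lost without mock replicate 2 or 3 or 1 h replicate 2 or 3 (adjusted p up to 0.105). The relatives of these carriers gave smaller values with no call. PIN3 differed by 0.41 ± 0.15, with all arrays at 1 h above mock, while PIN7 differed by 0.07 and PIN2 by -0.11. AUX1 differed by -0.29 ± 0.24 and LAX3 by -0.04. WAG1, a kinase that directs PIN polarity, differed by -0.44 ± 0.20.

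GH3.3 (AT2G23170), an amino acid conjugating enzyme for auxin that auxin itself induces, had levels of 7.58, 7.84 and 7.49 in mock and 6.24, 6.38 and 5.96 at 1 h. It fell by 1.44 ± 0.22 log2 units, a 2.71-fold fall (adjusted p = 0.0292), and the groups were 1.1 apart at their nearest. Without single arrays the difference ranged from -1.53 to -1.32, and the call was lost when any one of the mock and 1 h arrays or 4 h replicate 2 was left out (adjusted p up to 0.211). Of 11 measured genes of auxin conjugation and oxidation it was the only one called (9.09%, against 0.187% of all loci). The list median was -0.107. Other GH3 members differed by -0.46 ± 0.29 (GH3.17), 0.35 ± 0.19 (GH3.5, WES1 in the table), 0.19 ± 0.16 (GH3.6) and -0.14 (GH3.1), none called. Of 38 auxin response genes, which include the IAA repressors, ARF factors and TIR1/AFB receptors, 0 were called, against 0.187% of all loci. An unadjusted p under 0.05 was found for 4, all lower at 1 h, against 2.01% of all loci. The differences of the 38 ranged from -0.30 to 0.30 with a median of -0.041, and IAA2 had 9.53 to 9.79 in mock and 9.32 to 9.41 at 1 h.

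Gibberellin genes gave 2 rises among 28 measured (7.14% called, against 0.187% of all loci), 0 falls and a median of 0.034. RGL3 (AT5G17490), a DELLA protein that restrains gibberellin responses, had levels of 3.51, 3.58 and 3.59 in mock and 4.89, 4.84 and 4.84 at 1 h. Its values hardly varied within a group, with 2 of those at 1 h equal, and the groups were 1.25 apart. It rose by 1.29 ± 0.13 log2 units (2.45-fold, adjusted p = 0.00343) and was called whichever array was left out (adjusted p up to 0.0395). Its mean mock level of 3.56 lay just below the first quartile of all loci (3.59). AT5G14920 (GASA14), of a family named for induction by gibberellin, had levels of 6.78, 6.21 and 5.91 in mock and 7.86, 7.59 and 8.04 at 1 h. It rose by 1.53 ± 0.20 log2 units (2.89-fold, adjusted p = 0.0138), with its mock values among the most scattered of the called genes (SD 0.442). GASA14 lost its call when mock replicate 2, mock replicate 3 or any one of the 1 h arrays was left out (adjusted p up to 0.107). GA3, the ent-kaurene oxidase early in gibberellin synthesis, had levels of 7.91, 7.32 and 7.66 in mock and 8.48, 8.37 and 8.66 at 1 h, a difference of 0.87 ± 0.15 just outside the threshold (adjusted p = 0.0581). GA3OX1, which makes active gibberellin, differed by -0.55 ± 0.17 (adjusted p = 0.723), KAO2 by 0.45 ± 0.19 and the other DELLA gene RGL2 by 0.32 ± 0.11.

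The next rises were matched by symbol or synonym to none of the 26 lists. They were gathered from the calls once these were known, so they are described one by one. AT3G55550 (LecRK-S.4), an L-type lectin receptor kinase, had levels of 3.57, 3.38 and 3.87 in mock and 4.69, 5.45 and 5.86 at 1 h. Its rise of 1.72 ± 0.25 log2 units (3.3-fold, adjusted p = 0.0285) rested on very unequal values at 1 h (SD 0.595), with replicate 1 lowest. The fit of the 6 arrays alone gave an adjusted p of 0.0539. In mock its mean level of 3.61 lay close to the first quartile of all loci (3.59). LYK2 (AT3G01840), a LysM receptor-like kinase, had levels of 6.56, 6.71 and 6.60 in mock and 7.34, 7.54 and 7.61 at 1 h, and it rose by 0.88 ± 0.11 log2 units (1.83-fold, adjusted p = 0.0127). AT1G34110, for which the gene table gives no symbol, had levels of 7.09, 7.03 and 6.92 in mock and 7.73, 7.60 and 7.61 at 1 h, and it rose by 0.64 ± 0.08 log2 units (1.55-fold, adjusted p = 0.0127). CML11 (AT3G22930), a calmodulin-like protein, rose by 0.86 ± 0.10 log2 units (1.81-fold, adjusted p = 0.0105), and DGK7 (AT4G30340), a kinase that turns diacylglycerol into phosphatidic acid, by 0.61 ± 0.08 log2 units (1.53-fold, adjusted p = 0.0138). PHYA (AT1G09570), the far-red light receptor, had levels of 8.94, 8.96 and 8.97 in mock and 9.55, 9.45 and 9.54 at 1 h. Its rise was the smallest called, 0.56 ± 0.08 log2 units (1.47-fold, adjusted p = 0.0244), between groups that varied little. BRG2 (AT1G79110), a BOI-related gene, rose by 1.07 ± 0.16 log2 units (2.1-fold, adjusted p = 0.0292). AT3G55550 and LYK2 were not called when any one of the mock arrays, 1 h replicate 2 or 1 h replicate 3 was left out (adjusted p up to 0.199 and 0.0934). CML11 lost its call without mock replicate 2 or 3 or 1 h replicate 2 or 3 (0.0763), and AT1G34110 without these or 1 h replicate 1 (0.0934). DGK7 and PHYA lost theirs when any one of the mock and 1 h arrays was left out (adjusted p up to 0.105 and 0.164), and BRG2 for any of these or 4 h replicate 2 (0.206).

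A gene of the actin skeleton, ADF9, and a gene of the wall, XTH9, were among the largest rises. ADF9 (AT4G34970), of the actin depolymerizing factor family, had levels of 6.95, 7.50 and 7.65 in mock and 9.21, 9.25 and 9.55 at 1 h. The nearest values of the 2 groups were 1.56 apart, the widest gap of any called gene, although mock replicate 1 lay well under the other mock arrays. It rose by 1.97 ± 0.26 log2 units (3.92-fold, adjusted p = 0.0138). The other 10 members of that family had differences from -0.06 to 0.29, none called, which left the list median at 0.031. Of the 11 measured, 9.09% were called, against 0.187% of all loci. XTH9 (AT4G03210), a xyloglucan endotransglucosylase/hydrolase that cuts and rejoins wall polymers, had levels of 6.89, 6.65 and 6.43 in mock and 8.26, 8.16 and 8.26 at 1 h, and it rose by 1.57 ± 0.22 log2 units (2.97-fold, adjusted p = 0.0211). XTH28 (AT1G14720), of the same family, had levels of 6.46, 6.43 and 6.55 in mock and 7.47, 7.30 and 7.55 at 1 h, and it rose by 0.96 ± 0.15 log2 units (1.95-fold, adjusted p = 0.0451). These were the 2 rises among 28 wall loosening genes (7.14% called, against 0.187% of all loci), with 0 falls and a median of -0.024. The expansin EXPA1 had a difference of -0.32 ± 0.14. EXL3 (AT5G51550), of the EXORDIUM family, rose by 1.12 ± 0.17 log2 units (2.17-fold, adjusted p = 0.0386), and ENODL2 (AT4G27520), an early nodulin-like protein, by 1.23 ± 0.15 log2 units (2.34-fold, adjusted p = 0.0127). ADF9, XTH9 and EXL3 lost their calls when any one of the mock and 1 h arrays was left out (adjusted p up to 0.105, 0.150 and 0.238), and XTH28 for any of these or 4 h replicate 2 (0.287). ENODL2 lost its call when mock replicate 2, mock replicate 3 or any one of the 1 h arrays was left out (0.105).

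RCP1 and MLS, both of carbon metabolism, had 2 of the 3 smallest p-values. No gene list of carbon metabolism was drawn up, so carbon metabolism as a group was not tested. The called genes that follow were gathered once the calls were known and are described one by one. No part in carbon metabolism was shown here for YLS5 or AT4G28410. RCP1 (AT5G17520, also MEX1), the maltose exporter of the plastid envelope, had levels of 7.31, 7.56 and 7.46 in mock and 8.68, 8.65 and 8.77 at 1 h. All arrays at 1 h lay at least 1.09 above mock, and the rise of 1.25 ± 0.09 log2 units (2.38-fold, adjusted p = 0.00053) had the smallest p of all loci, with adjusted p up to 0.00938 without single arrays. MLS (AT5G03860), malate synthase of the glyoxylate cycle, had levels of 5.94, 5.86 and 6.07 in mock and 7.18, 7.14 and 7.02 at 1 h. It rose by 1.16 ± 0.10 log2 units (2.23-fold, adjusted p = 0.00212), with adjusted p up to 0.0247 without single arrays. YLS5 (AT2G38860, also DJ-1e) rose by 0.87 ± 0.13 log2 units (1.82-fold, adjusted p = 0.0292), and lost its call when any one of the mock and 1 h arrays was left out (adjusted p up to 0.199). AT4G28410, listed with the synonym Root System Architecture 1, had levels of 5.92, 5.62 and 5.76 in mock and 6.96, 6.96 and 6.96 at 1 h, values that at 1 h differed by less than 0.01. It rose by 1.19 ± 0.12 log2 units (2.28-fold, adjusted p = 0.00343) and was called whichever array was left out (adjusted p up to 0.0395).

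The remaining 10 called genes carry no symbol in the gene table and are given by locus. The largest of their rises was AT3G15720 at 1.30 ± 0.20 log2 units (2.46-fold, adjusted p = 0.039), followed by AT2G46850 at 1.18 ± 0.16 log2 units (2.27-fold, adjusted p = 0.0191) and AT3G50190 at 1.01 ± 0.16 log2 units (2.01-fold, adjusted p = 0.0474). AT1G66250 had levels of 6.62, 6.34 and 6.49 in mock and 7.28, 7.28 and 7.28 at 1 h, nearly constant at 1 h, and rose by 0.80 ± 0.09 log2 units (1.74-fold, adjusted p = 0.00611). It lost its call without mock replicate 3 or 1 h replicate 2 or 3 (adjusted p up to 0.0587). AT1G55200, AT2G41990, AT3G15680, AT1G33750 and AT1G68430 rose by 0.89, 0.88, 0.79, 0.72 and 0.70 log2 units. The mean mock level of AT1G55200, 3.45, lay below the first quartile of all loci (3.59). AT1G17830 was the only call downward beside GH3.3: it had levels of 5.58, 5.63 and 5.60 in mock and 4.96, 5.22 and 5.04 at 1 h and fell by 0.53 ± 0.09 (1.45-fold, adjusted p = 0.0474). This fall lost its call in the fit of the 6 arrays alone (adjusted p = 0.0609) and when any one of the mock and 1 h arrays or 4 h replicate 2 was left out (adjusted p up to 0.297). AT3G15720 and AT3G15680 lost theirs for any one of the same 7 arrays (up to 0.254 and 0.199), and each other rise by locus here, except AT1G66250, when mock replicate 3, 1 h replicate 2, 1 h replicate 3 or one of some further arrays was left out (up to 0.292).

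**Figure D4:**
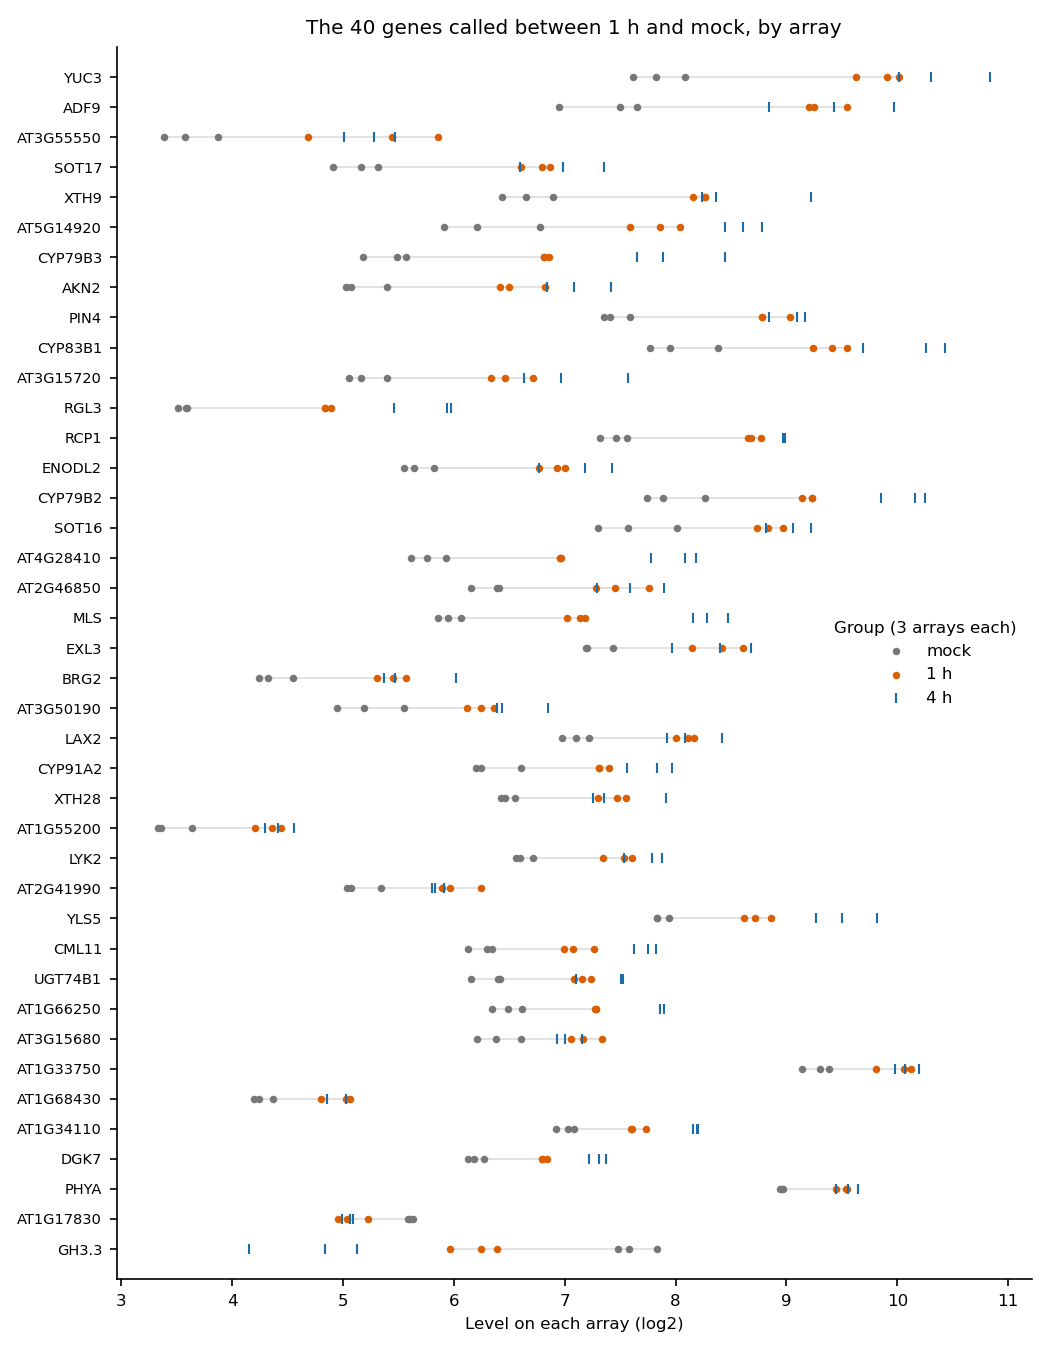
Log2 level (horizontal axis) of each called gene (vertical axis, ordered by its difference) on the 3 mock arrays (grey), the 3 arrays at 1 h (orange) and the 3 at 4 h (blue bars). Grey and orange points do not overlap in any of the 40 genes, which were called on these same arrays. GH3.3 and AT1G17830 at the foot are the only ones with orange below grey.

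Below the threshold for a call stood the 9 genes with separate groups and a difference of at least 1. They include 2 RGF genes, which encode tyrosine-sulfated peptides that act on root meristem size and PLT levels. RGF8 (AT2G03830) had levels of 6.75, 6.52 and 6.43 in mock and 7.77, 8.21 and 8.16 at 1 h, a difference of 1.48 ± 0.27 (adjusted p = 0.0906, and 0.00463 in the fit of the 6 arrays alone). RGF3 (AT2G04025) had levels of 8.55, 8.76 and 8.83 in mock and 9.71, 9.92 and 10.20 at 1 h, a difference of 1.23 ± 0.24 (adjusted p = 0.129, and 0.00989 in that fit). The receptors on the RGF list were not matched by name in the gene table, so the 7 measured genes are peptides and TPST. The counts therefore say nothing of the receptors. AT1G34110, which was called, and AT5G48940, called in the fit of the 6 arrays alone, have no symbol there and were not counted in this list. Whether they encode such receptors was not settled here. The model of all 9 arrays called 0 of the 7 measured genes, against 0.187% of all loci. Of the 7, 3 had an unadjusted p under 0.05 and a higher level (2.33% of all loci). RGF4 differed by 0.48 ± 0.21, RGF6, RGF7 and RGF9 by -0.11, -0.02 and -0.02, and TPST, the enzyme that sulfates these peptides, by 0.09. FEZ (AT1G26870), a NAC factor that promotes divisions of root cap stem cells, had levels of 5.59, 4.87 and 4.99 in mock and 5.87, 6.07 and 6.59 at 1 h, a difference of 1.03 ± 0.24 (adjusted p = 0.290). ACO1 (AT2G19590), which makes ethylene in its last step, had levels of 6.56, 7.54 and 7.44 in mock and 8.28, 8.65 and 8.46 at 1 h, a difference of 1.29 ± 0.29 (adjusted p = 0.290). The other 5 were TLP8 at 1.02, CB5-C at 1.13, AT5G60630 at 1.38, AT5G48130 at 1.04 and AT4G38410 at 1.23.

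Lists of the cell cycle and of tissue identity held no calls. With 0.187% of all loci called, lists of this size would mostly hold none. For counts at an unadjusted p under 0.05, here and in the next paragraph, the share of all loci was 4.34% (2.33% higher and 2.01% lower). Of 21 mitotic and 22 S phase genes, 0 were called and 0 had an unadjusted p under 0.05, with medians of 0.051 and 0.049 and differences from -0.23 to 0.21. Of 22 D cyclins and cyclin-dependent kinase inhibitors, 0 were called and 3 had an unadjusted p under 0.05, among them ICK3 at 0.38 ± 0.14 and KRP2 at -0.36 ± 0.13. The 24 stem cell niche regulators ranged from -0.40 to 0.38 with 0 calls and 3 at an unadjusted p under 0.05. Among 31 cytokinin genes, 0 were called and 2 had an unadjusted p under 0.05, both lower. LOG4, which activates cytokinin, had 6.57 to 7.03 in mock and 5.89 to 6.27 at 1 h (-0.67 ± 0.27), and the response regulators RR5 and ARR4 differed by -0.38 ± 0.20 and -0.34 ± 0.13. Of 9 genes of the CLE40 pathway 0 were called, and 1, CRN, had an unadjusted p under 0.05, at 0.42 ± 0.14. The 17 ribosome biogenesis genes had 0 calls and a median of 0.131. An unadjusted p under 0.05 was found for 4 of them, against 4.34% of all loci, and in 8 all arrays at 1 h lay above mock, against 5.73% of all loci.

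Embryo and shoot regulators, 22 in number, had 0 calls and 3 at an unadjusted p under 0.05, all higher. CUC2, a boundary factor, had 3.94 to 4.46 in mock and 4.59 to 5.11 at 1 h, a difference of 0.69 ± 0.24, and PHB and KAN (KAN1) differed by 0.46 ± 0.14 and 0.44 ± 0.17. The root cap list had a median of -0.165 over 11 genes with 0 calls. At an unadjusted p under 0.05 were 1 higher gene, FEZ, and 2 lower. The lower ones were BFN1, a nuclease of dying root cap cells, at -0.44 ± 0.14, and ARF16, an auxin response factor named after its values were seen, at -0.22 ± 0.09. NAC070 (BRN2), a factor of cap maturation, differed by -0.42 ± 0.24 and had an unadjusted p of 0.115. Epidermis and root hair genes had a median of 0.023, endodermis and cortex genes one of -0.087, and vascular and pericycle genes one of 0.016. The 30 genes of wounding, heat and protoplasting had 0 calls, 1 at an unadjusted p under 0.05 and a median of -0.12. Their mean level was 8.32 to 8.40 on the mock arrays and 8.23 to 8.28 at 1 h, and the part of this difference in the calls was not tested. The 8 photosynthesis genes had 0 calls and a median of 0.018.

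**Figure D5:**
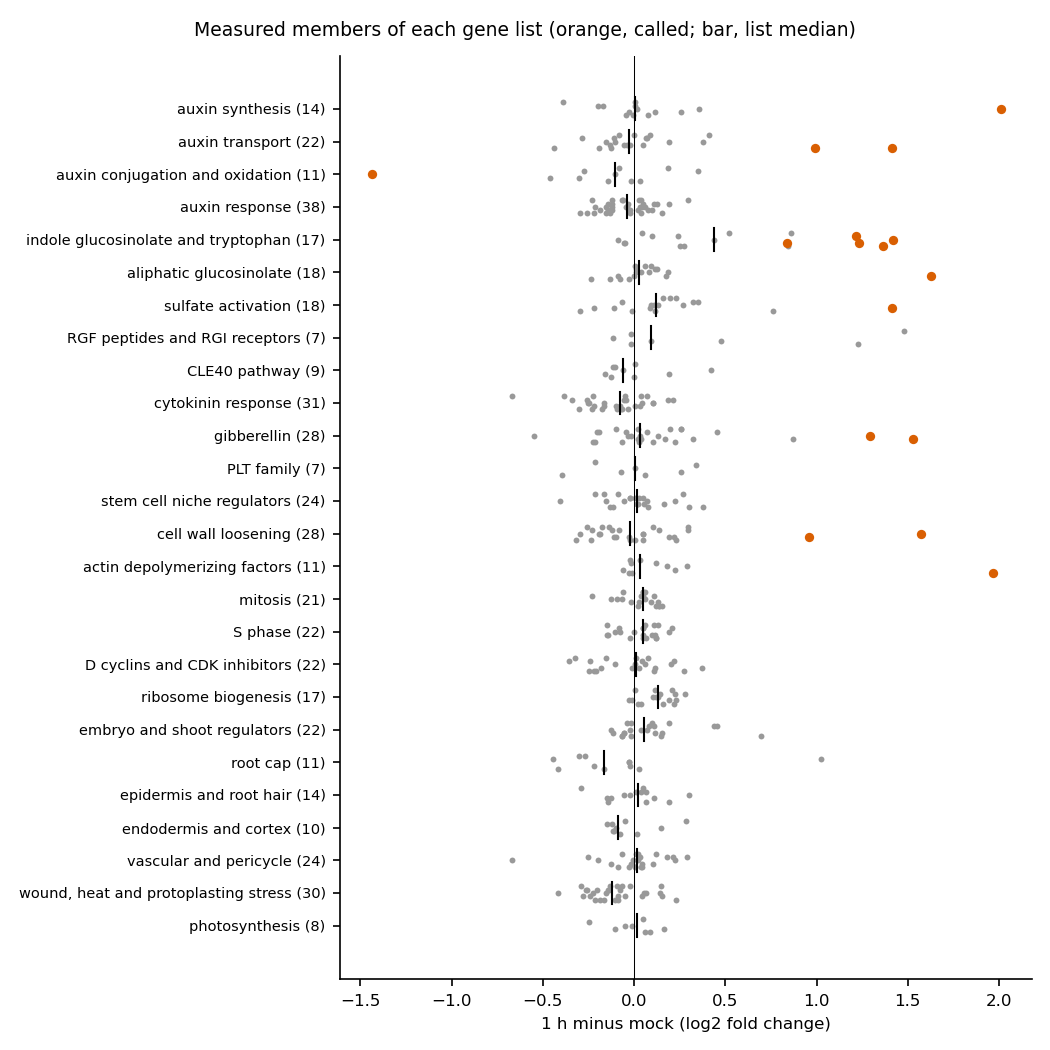
Log2 difference of 1 h minus mock (horizontal axis) for every measured member of the 26 gene lists (vertical axis, number measured in brackets), with called genes in orange and a bar at each list median. The indole glucosinolate list has its median at 0.437 and 5 calls, while in the lists below the cell wall and actin genes all points are grey.

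Single arrays were uneven among the rises. Mock replicate 1 had the highest of the mock values in 19 of the 38 risen genes (50.0%), against 35.3% of all loci. At 1 h, replicate 3 was the highest in 21 (55.3%, against 35.7%) and replicate 1 the lowest in 21 (55.3%, against 37.9%).

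The arrays at 4 h were set against the same mock arrays, so the 2 comparisons are not independent, and no mock array was incubated for 4 h. The differences from mock at 1 h and at 4 h were 1.16 ± 0.10 and 2.35 ± 0.10 for MLS, 1.42 ± 0.18 and 2.59 ± 0.18 for CYP79B3 and 1.29 ± 0.13 and 2.23 ± 0.13 for RGL3. They were -1.44 ± 0.22 and -2.93 ± 0.22 for GH3.3. The step from 1 h to 4 h was itself called in these 4 genes (adjusted p = 0.00162, 0.0243, 0.0188 and 0.0222). It was not called in YUC3 (2.01 and 2.54, adjusted p = 0.161), PIN4 (1.41 and 1.58, adjusted p = 0.436) or ADF9 (1.97 and 2.05, adjusted p = 0.901). Of the 38 risen genes, 33 had a higher mean at 4 h than at 1 h, and the step from 1 h to 4 h was called upward in 10, against 0.887% of all loci. ACO1, not called at 1 h, had differences of 1.29 and -0.03 from mock at the 2 times.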

How the data were processed

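Expression was measured by array in sorted quiescent centre cells, in 3 groups of 3 arrays (mock, 1 h, 4 h), called biological replicates in the labels. Each deposited value is the log2 level of 1 probe set after RMA by the authors, per the submitters' processing notes, where limma 3.24.15 is listed too. Array type, build and probe set definition were not given in the sources used here, and shared probes of paralogs cannot be recognised. The table held 21494 probe sets, of which 64 controls were left out, and symbols came from the TAIR10.1 gene table, which held 21231 of the other 21430. The number of arrays limits the precision (median standard error of a log2 difference 0.108).

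No further normalization or filter was applied. A limma 3.58.1 model in R 4.3.3 (lmFit, eBayes, 6 residual and 4.47 prior degrees of freedom) was fitted to all 9 arrays, and 1 h minus mock was tested two-sided with Benjamini-Hochberg adjustment over 21430 loci and a threshold of 0.05. All adjusted p-values come from limma, and the fit was tested on simulated data. For a single gene, an exact permutation test of 3 against 3 arrays cannot go below p = 0.1. Members, 26 gene lists (567 symbols listed, 485 measured) and tests were chosen with earlier results of these data known. Genes named are all called genes, uncalled genes with separate groups and an absolute log2 difference of at least 1, the PLT family, and up to 3 members of each list with the largest differences. Other list members given with values were chosen after these were seen. Replicate numbers were not taken as pairs in the reported model. Alternatives were quantile normalization, centring, trend and robust eBayes, leaving out loci whose mean level lay below the 40th percentile, array weights, the 6 arrays alone, the replicate number as a block, minimum differences of 0.5 and 1, and leaving out each array.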

Additional observations from a re-analysis of the deposited data

How the results depend on the processing

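Quantile normalization called 42 genes, centring of the arrays 41 and leaving out dim loci 40 of 12858, close to the 40 reported. Trend and robust eBayes called 43, with 1 down. Array weights called 79 (73 up, 6 down), and the 6 arrays of mock and 1 h alone 65 (63 up, 2 down). Calls that also had an absolute log2 difference of at least 1 numbered 23 (22 up, 1 down), and a test of differences beyond 0.5 gave 3 (3 up, 0 down), which were RCP1, PIN4 and YUC3. Without single arrays the count ran from 6 to 61, with 6 to 59 up and 0 to 6 down; each such fit has fewer samples, and why the other settings differ was not tested. The replicate number as a block called 36 genes in the 9 arrays (33 up, 3 down), of which 30 were among the 40, and 38 in the 6 arrays (37 up, 1 down), of which 28 were. Same-numbered arrays of mock and 1 h deviated from their group means with correlations of -0.0986, 0.0122 and -0.0195 across genes. These values gave no sign of pairing by number, but with 3 arrays per group they cannot show that the arrays were prepared unpaired. Between arrays at 1 h and 4 h such correlations ran from -0.459 to 0.427, with 0.123, -0.131 and 0.273 for the same numbers. The reported model took all 9 arrays as independent. No named gene changed direction past the threshold under any of these settings. Among 113 named genes, 34 lost a call without mock replicate 3, as did 34 without 1 h replicate 2 and 34 without 1 h replicate 3, against 2 in the 6 arrays alone, where 7 gained one.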

Other observations

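The fit of the 6 arrays of mock and 1 h alone called 27 genes that the model of all 9 arrays did not, 26 higher and 1 lower, against 63 calls upward (0.294%) and 2 downward in that fit as a whole. They were looked at after the counts were seen, and their standard errors were smaller in this fit than in the other. The genes named here were picked from these after the calls were seen and are described one by one. GATA19 (AT4G36620), a GATA factor, had levels of 6.20, 6.33 and 6.43 in mock and 7.19, 7.23 and 7.11 at 1 h, a rise in that fit of 0.86 ± 0.08 (adjusted p = 0.00629, and 0.0581 with all arrays). SPT (AT4G36930), a bHLH factor that restrains growth, had 6.24 to 6.34 in mock and 6.87 to 7.003 at 1 h, a difference of 0.65 ± 0.07 (adjusted p = 0.0115, and 0.290 with all arrays). CRF3 (AT5G53290), a cytokinin response factor of the AP2 class, had a difference of 0.66 ± 0.08 (adjusted p = 0.0152), and LSH3 (AT2G31160), a factor of shoot boundaries, one of 0.98 ± 0.15 (adjusted p = 0.0434) from mock levels of 3.26 to 3.87. SCRM2 (AT1G12860), a bHLH factor known from stomata, had one of 0.67 ± 0.10 (adjusted p = 0.0492). AT5G48940, without a symbol in the gene table, had levels of 7.46, 7.43 and 7.36 in mock and 8.08, 8.12 and 8.08 at 1 h, a difference of 0.68 ± 0.07 (adjusted p = 0.00757).

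Metabolic genes in the same set included GBSS1 (AT1G32900), the starch synthase that makes amylose, at 0.75 ± 0.09 (adjusted p = 0.0153), with mock values of 6.76 to 6.85 and 7.41 to 7.71 at 1 h. NPC6 (AT3G48610), a phospholipase C, was at 0.70 ± 0.10 (adjusted p = 0.0382) and FAR5 (AT3G44550), a fatty acyl reductase, at 0.64 ± 0.09 (adjusted p = 0.0364). The only lower gene, BGAL12 (AT4G26140), a beta-galactosidase, had 5.98, 6.09 and 5.89 in mock and 5.47, 5.47 and 5.46 at 1 h, a difference of -0.52 ± 0.08 (adjusted p = 0.0405). The 3 arrays at 4 h had an SD of 0.664 for RGF8, 0.329 for GATA19 and 0.371 for BGAL12, against a median of 0.145 over all loci.

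Some values were equal in every deposited digit on 2 or 3 arrays of a group, in 1348 loci in mock, 1541 at 1 h and 884 at 4 h. Of the 40 called genes, 8 had values equal in this way at 1 h and 0 had them in mock, against 1541 and 1348 of 21430 loci. Among these 8 were PIN4, RGL3 and AT4G28410, which were called whichever array was left out. Equal values lower the spread within a group, and their part in the calls was not tested.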
